A study of Glycine max with 21 samples.

Results

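The comparison described here is between soybean roots held for 6 hr and for 1 hr under dehydration stress. Its members are the 6 libraries of those 2 groups, 3 per group, out of the 21 libraries in 7 groups that were sequenced, and no control library enters it. All plants were seedlings of cv. Williams 82 at the V1 stage, grown on moist germination paper in a growth chamber, and RNA was taken from the roots. Both groups were dehydrated in the same way, by taking the plants off the paper and leaving them in air, so that only the number of hours differs between them. The study's methods describe 3 biological replicates per time point, with 5 plants maintained for each. The labels give the hours of stress and not the time of day, and 5 hr passed between the harvests with no unstressed plants taken at either one. Hours of stress and hours of the day can therefore not be told apart in any result below.

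When roots lose water, transcription factors carry much of the response. In Arabidopsis, the hormone abscisic acid acts through BZIP factors, a second route runs through the DREB members of the AP2-EREBP class, and MYB, bHLH, NAC and WRKY factors act alongside both. ZIM proteins include the JAZ repressors of jasmonate signalling, and HD-Zip I genes are known in several species for responses to water deficit and abscisic acid. Some of these genes are raised only briefly after a stress begins, and others stay high as it goes on. The gene models of the deposited table carry identifiers and no names, so genes are described below by the transcription factor class or the HD-Zip subfamily that the study assigned to them. The root label was not checked against marker genes for the same reason. In RNA from whole roots, fewer cells of a type and less RNA per cell cannot be told apart.

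The 1 hr libraries held 4558091 to 6081345 counts of uniquely mapped reads and the 6 hr libraries 7413769 to 9091870, so the groups do not overlap in depth, and with every library thinned to the smallest total 711 genes were called where 753 were called at full depth. Replicate 3 of 6 hr was sequenced in lane 4 and the other 5 libraries in lane 3. Replicate 3 of 1 hr and replicate 1 of 6 hr stood apart from the other libraries of their own group, with rank correlations across genes of 0.913 to 0.918 and 0.926 to 0.927 against 0.959 and 0.961 for the remaining pair of each group. In replicate 1 of 6 hr, the 10 most abundant genes took 4.46% of the counts, against 2.02 to 2.64% in the other 5 libraries. Between replicates of a group, the chi-square per gene was 5.16 to 24.1, where sampling noise alone gives values near 1.

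More genes were called lower than higher between 1 and 6 hr of dehydration. Of 62537 gene models, 33178 passed edgeR's filter on low counts, and 753 of these were differentially expressed (DE), which is 2.27% of those tested. DE means here an adjusted p under 0.05 (edgeR's quasi-likelihood test, Benjamini-Hochberg over all genes tested) and a fold change of at least 2. Among the DE genes 231 were higher at 6 hr (0.696% of the genes tested) and 522 were lower (1.57%), so that 30.7% rose. The median log2 fold change was 1.73 over the genes that rose and -2.11 over those that fell, against 0.02 over all genes tested. Falls were also the larger changes, since 286 genes fell and 86 rose by 4-fold or more, and 52 fell and 9 rose by 16-fold or more. The genes that fell had a median level of 33.8 CPM (CPM, the count of a gene scaled to equal library totals after TMM normalization) at 1 hr and 7.73 CPM at 6 hr, and those that rose had 7.17 CPM at 1 hr and 24.2 CPM at 6 hr. In all 753 DE genes the 3 libraries of one time lay above the 3 of the other, a separation that 25.6% of all tested genes showed. The excess of falls was in the called genes. Of the 6329 genes with an unadjusted p under 0.05, 2968 were higher and 3361 lower at 6 hr, the genes without overlap were split into 4209 higher and 4270 lower, and 47.8% of all genes tested had a negative change.

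The number of DE genes rested on single libraries. It was 37 without replicate 2 of 6 hr and 55 without replicate 3 of 6 hr. Leaving out replicate 1, 2 or 3 of 1 hr gave 409, 162 and 414 DE genes, and leaving out replicate 1 of 6 hr gave 739. Adding the lane to the fit, in which replicate 3 of 6 hr is alone in its lane and so adds nothing to the comparison, gave 59 DE genes. Each of the 750 to 753 DE genes still tested kept its sign in every one of these fits. The 1 hr and 6 hr libraries did not overlap in any DE gene, so leaving out a library could not reverse a sign. The kept direction is therefore no evidence that the calls are stable. DESeq2's Wald test called 2200 genes on the same 6 libraries, and 750 of the 753 were among them. Of 44 DE genes named below, 34, 22 and 33 remained DE without replicate 1, 2 or 3 of 1 hr, and 38, 8 and 8 without replicate 1, 2 or 3 of 6 hr. Over these fits the largest adjusted p of a named gene ran from 0.0376 to 0.171, and 5 genes remained DE in all of them: Glyma10g42450, Glyma03g42260, Glyma11g25860, Glyma07g04010 and Glyma15g07720.

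**Figure D1:**
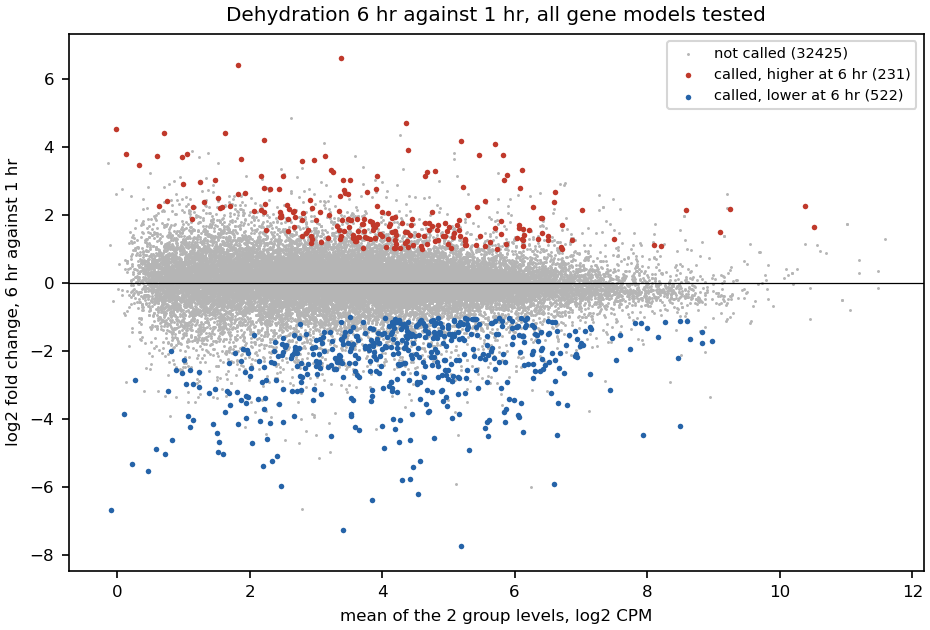
Each point is one of the 33178 gene models tested, with the mean of both group levels on the x axis (log2 CPM) and the log2 fold change of 6 hr against 1 hr on the y axis. Of the 522 genes called lower at 6 hr (blue) 52 changed by 16-fold or more, and of the 231 called higher (red) 9 did.

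Transcription factors were among the genes that fell. The study assigned 1054 genes to a class because they differed from the control under dehydration or salt in these samples, so their direction here is not independent evidence. Of the 804 tested here, 86 fell, 12 rose and 706 were not DE. The share DE, 12.2%, stands beside 2.27% of all genes tested, and the median log2 fold change was -0.40 beside 0.02. Among the 453 genes from the study's dehydration list, 76 fell and 10 rose. Of the 351 genes that only the salt list held, 10 fell and 2 rose (3.42% DE). A gene is in this group because it missed the study's dehydration list, which used these libraries, so this share is not independent of them either. Summed over the 804 genes, the level was 18500, 20400 and 27400 CPM in replicates 1 to 3 of 1 hr and 14600, 12600 and 12900 CPM at 6 hr. Every 1 hr library thus lay above every 6 hr library, and replicate 3 of 1 hr was the highest. Without replicate 2 of 6 hr the counts were 6 fallen and 0 risen (69 risen by an unadjusted p under 0.05), and the 6 were 3 MYB/HD-like, 2 AP2-EREBP and 1 homeodomain gene. Without replicate 3 of 6 hr they were 5 and 1, and with DESeq2's test on all 6 libraries 208 and 43.

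**Figure D2:**
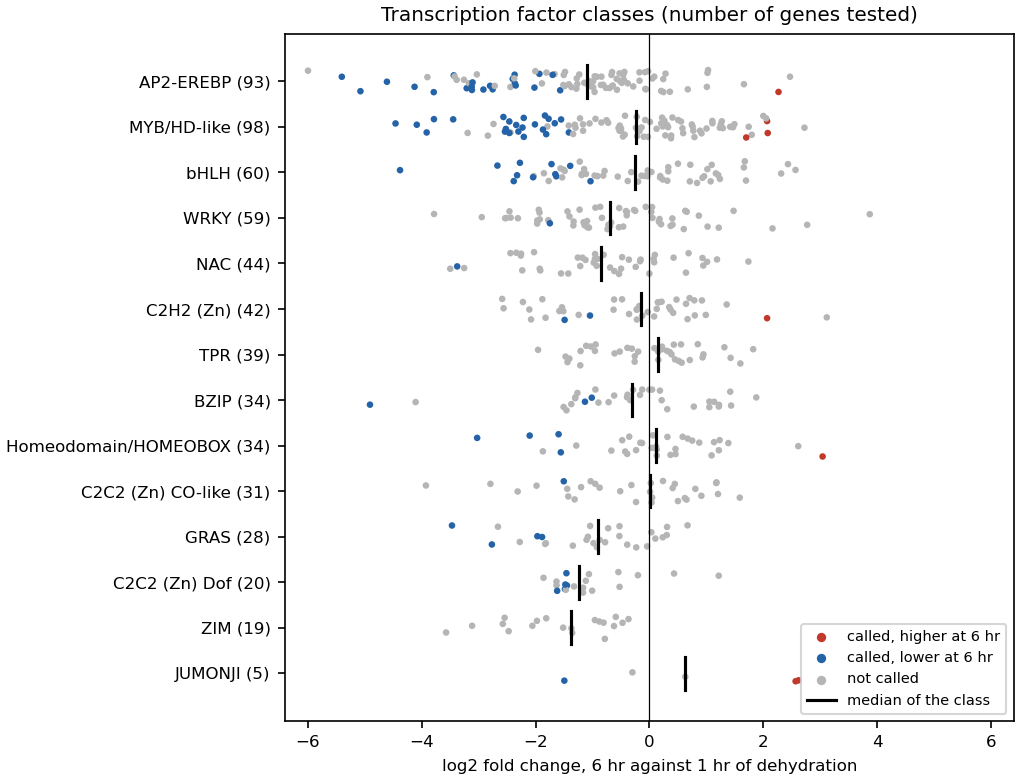
Each point is a gene of the named transcription factor class, placed by its log2 fold change of 6 hr against 1 hr of dehydration, with the number of genes tested in parentheses and the class median as a black bar. The medians of AP2-EREBP, Dof and ZIM lie below -1, and red points (called higher) are few in every class.

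The AP2-EREBP class holds the ethylene response factors and the DREB factors. Of its 93 genes tested, 21 fell and 1 rose in edgeR's test, with 52 lower and 5 higher by an unadjusted p under 0.05. The share DE in edgeR's test was 23.7%, beside 2.27% of all genes. DESeq2's test called 42 lower and 4 higher. A negative change was measured in 79 of the 93, and the median log2 fold change was -1.10. The summed level of the class was 2110, 2630 and 3760 CPM at 1 hr and 1280, 985 and 1270 CPM at 6 hr. The groups did not overlap, and the mean over libraries was 2830 CPM at 1 hr and 1180 CPM at 6 hr. Glyma01g22260 had 84.6, 95.9 and 169 CPM at 1 hr and 14.3, 8.06 and 9.76 CPM at 6 hr. It was 10.8-fold lower at 6 hr (log2 fold change -3.44 ± 0.35 SE, adjusted p = 0.00993 by edgeR). Glyma01g41520 fell 9.26-fold, from 33.7 ± 5.87 to 3.61 ± 1.60 CPM (SD, n = 3 libraries per group; adjusted p = 0.00993 by edgeR). Glyma14g10130 was the only member called higher in edgeR's test, with 4.54, 7.44 and 3.78 CPM at 1 hr and 17.4, 28.7 and 29.4 CPM at 6 hr. That was a 4.81-fold rise (adjusted p = 0.0214 by edgeR), and its lowest 6 hr library lay above the highest 1 hr library. Leaving out replicate 2 or 3 of 6 hr cut the 21 genes that fell to 2 and 1.

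In the MYB/HD-like class, 23 of 98 genes fell and 3 rose in edgeR's test, so that 26.5% were DE, beside 2.27% of all genes. By an unadjusted p under 0.05 35 were lower and 16 higher, and DESeq2's test called 31 lower and 10 higher. Leaving out replicate 2 or replicate 3 of 6 hr left 3 fallen and none risen by edgeR. This class holds many DNA-binding proteins with MYB repeats, among them, in Arabidopsis, single-repeat MYB proteins of the circadian clock. Which soybean genes match those proteins is not given in the sources used here. Its median log2 fold change was -0.23, and 57 of its genes had a negative change. The summed level was 2400, 2910 and 3150 CPM at 1 hr and 1390, 1580 and 1370 CPM at 6 hr, with no overlap.

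Glyma16g01980 was the most abundant of the named genes, at 502, 649 and 586 CPM at 1 hr. At 6 hr it had 111, 156 and 109 CPM, a 4.62-fold fall (log2 fold change -2.21 ± 0.21 SE, adjusted p = 0.00762 by edgeR). Glyma03g42260 had 134, 200 and 240 CPM at 1 hr and 7.45, 12.2 and 6.29 CPM at 6 hr. This was a 22.0-fold fall (-4.46 ± 0.35 on the log2 scale, adjusted p = 0.00625 by edgeR), and the groups were far apart. Glyma19g45030 fell 13.8-fold, from 73.5, 88.0 and 158 CPM to 7.80, 9.28 and 6.04 CPM. Glyma10g42450 fell 17.0-fold and had the smallest p of any gene with a class, at 74.4, 90.4 and 108 CPM against 6.65, 3.91 and 5.40 CPM (adjusted p = 0.00389 by edgeR). A further 4 named members, Glyma14g39130, Glyma15g14620, Glyma17g04170 and Glyma20g24600, fell 3.57-fold to 5.75-fold from 1 hr means of 15.4 to 25.9 CPM. Against these falls, Glyma20g30250 rose 4.22-fold, from 3.60, 1.75 and 1.80 CPM to 8.83, 11.1 and 10.5 CPM, and Glyma11g14490 rose 4.19-fold to a mean of 11.3 ± 1.58 CPM. The MYB class proper had 4 genes tested, of which 2 fell, and Glyma12g04770 fell 3.04-fold (adjusted p = 0.0226 by edgeR).

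The libraries taken at 12 hr of dehydration give a further reading of these genes, on a scale set over the 9 dehydration libraries and without a test. Glyma16g01980 stood at 24.4, 27.9 and 26.8 CPM at 12 hr, below all its 6 hr libraries. Glyma03g42260 stood at 1.21, 1.32 and 2.63 CPM and Glyma19g45030 at 1.81, 1.05 and 0.263 CPM, again below 6 hr. Glyma10g42450 was no lower than at 6 hr, with 7.24, 7.91 and 8.68 CPM at 12 hr. Glyma14g39130 lay above all its 6 hr libraries, at 5.13, 4.74 and 20 CPM, and Glyma17g04170 did so in 2 of 3 libraries. For Glyma15g14620 and Glyma20g24600 the 12 hr and 6 hr libraries overlapped. Of the genes that rose, Glyma20g30250 lay below all its 6 hr libraries at 12 hr, with 4.98, 5.53 and 6.84 CPM, and Glyma11g14490 above them, with 20.2, 20.8 and 40.3 CPM.

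Among bHLH factors, a large class that takes part in hormone and light responses, 11 of 60 genes fell and none rose in edgeR's test, with 22 fallen and 11 risen by an unadjusted p under 0.05 and 18 and 2 in DESeq2's test. The share DE in edgeR's test, 18.3%, stands beside 2.27% of all genes. With replicate 2 or replicate 3 of 6 hr left out in turn, edgeR called no bHLH gene. The summed level of the class was 1460, 1370 and 1670 CPM at 1 hr and 1070, 689 and 727 CPM at 6 hr. Replicate 1 of 6 hr was the highest of its group and still lay below every 1 hr library. Glyma08g16190 fell 20.9-fold, from 88.4, 116 and 198 CPM to 8.48, 4.27 and 6.42 CPM (log2 fold change -4.38 ± 0.40 SE, adjusted p = 0.00748 by edgeR). Its lowest 1 hr library was far above its highest 6 hr library.

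The BZIP class includes the factors that bind abscisic acid response elements. Of its 34 genes, 3 fell and none rose in edgeR's test, with 12 and 7 by an unadjusted p under 0.05 and 10 and 3 in DESeq2's test. Glyma03g40730 had the largest fold of all named genes with a class, from 46.0, 56.03 and 128 CPM at 1 hr to 4.01, 0.977 and 2.57 CPM at 6 hr. The fall was 30.1-fold (-4.91 ± 0.59 on the log2 scale, adjusted p = 0.0145 by edgeR), with replicate 3 of 1 hr more than double either other 1 hr library. Dof factors, plant zinc finger proteins, fell in 5 of 20 cases, 18 of 20 had a negative change, and their median log2 fold change was -1.25. The Dof gene with the smallest p, Glyma04g41170, had 106, 135 and 127 CPM at 1 hr and 34.7, 46.8 and 53.6 CPM at 6 hr, a 2.73-fold fall. GRAS proteins, which include the DELLA repressors of gibberellin signalling, fell in 4 of 28 cases, with a median of -0.90. The GRAS gene Glyma12g34420 went from 31.4, 47.1 and 88.1 CPM to 6.53, 3.30 and 5.14 CPM, an 11.1-fold fall (adjusted p = 0.0169 by edgeR). In edgeR's test 8.82% of the BZIP, 25% of the Dof and 14.3% of the GRAS genes were DE, beside 2.27% of all genes. With replicate 2 or replicate 3 of 6 hr left out in turn, no gene of these classes was called by edgeR.

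Other classes had 1 named member that fell. In the C3H zinc finger class, whose members often bind RNA, 3 of 14 genes fell, among them Glyma04g05290, from 19.1, 18.4 and 34.1 CPM to 1.72, 0.488 and 1.28 CPM (20.1-fold). The share DE in the C3H class, 21.4%, stands beside 2.27% of all genes. No C3H gene was called by edgeR with replicate 2 or replicate 3 of 6 hr left out in turn. Glyma13g16770, a CCAAT-binding factor, fell 5.28-fold, from 93.1, 151 and 111 CPM to 18.0, 17.1 and 32.2 CPM. The homeodomain gene Glyma12g31900 fell 8.16-fold to 3.74 ± 1.85 CPM (SD, n = 3). In all of these genes the 2 times were separated by a wide gap. Smaller falls, of 2.37-fold to 3.75-fold, were measured for Glyma10g35480 (AUX-IAA-ARF, auxin signalling), Glyma05g03070 (bromodomain, which reads acetylated histones), Glyma11g07930 (CO-like, named for the photoperiod gene CONSTANS), Glyma17g33130 (C2H2 zinc finger) and Glyma15g23920 (PLATZ).

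The genes with a class that rose came from many classes, with 1 to 3 genes in each. JUMONJI proteins are known as histone demethylases, and 2 of the 5 tested rose while 1 fell. Without replicate 2 of 6 hr none of the 5 was called by edgeR, and without replicate 3 of 6 hr only 1, a rise. Glyma12g05890 had 3.41, 3.50 and 2.52 CPM at 1 hr and 17.4, 18.9 and 21.7 CPM at 6 hr, a 6.15-fold rise (log2 fold change 2.62 ± 0.24 SE, adjusted p = 0.00727 by edgeR). Glyma11g13910 rose 5.93-fold, from 3.79, 2.41 and 2.70 CPM to 12.7, 21.9 and 18.6 CPM (adjusted p = 0.0141 by edgeR). Both sat at a similar low level in all 1 hr libraries. The third, Glyma06g10660, started higher and fell 2.82-fold, from 117 ± 39.9 to 41.6 ± 7.97 CPM (SD, n = 3).

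Among DE genes with a class, the largest rise was in the homeodomain gene Glyma11g20240, with 2.65, 2.85 and 1.44 CPM at 1 hr and 17.8, 20.03 and 19.3 CPM at 6 hr. It was 8.23-fold higher at 6 hr (3.04 ± 0.29 on the log2 scale, adjusted p = 0.00748 by edgeR), and with all 21 libraries in the fit its adjusted p was 0.0673. The Nin-like gene Glyma16g30180, of a class that in Arabidopsis acts in the nitrate response, rose 4.98-fold, from 1.704, 1.75 and 1.26 CPM to 7.80, 7.45 and 8.35 CPM. The C2H2 zinc finger gene Glyma08g21080 rose 4.19-fold, from 10.03, 4.596 and 5.05 CPM to 21.4, 34.4 and 27.0 CPM. None of these 3 genes had a 6 hr library within the range of its 1 hr libraries, which was so for every DE gene. The BTB/POZ gene Glyma05g22220, of a class known as adaptors of ubiquitin ligases, rose 3.12-fold to 9.62 ± 0.79 CPM. The Tubby-like gene Glyma17g02570 rose 2.84-fold to 30.7 ± 3.60 CPM, and Glyma15g08540 of the AUX-IAA-ARF class rose 2.07-fold to 28.1 ± 4.56 CPM (SD, n = 3 each).

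**Figure D3:**
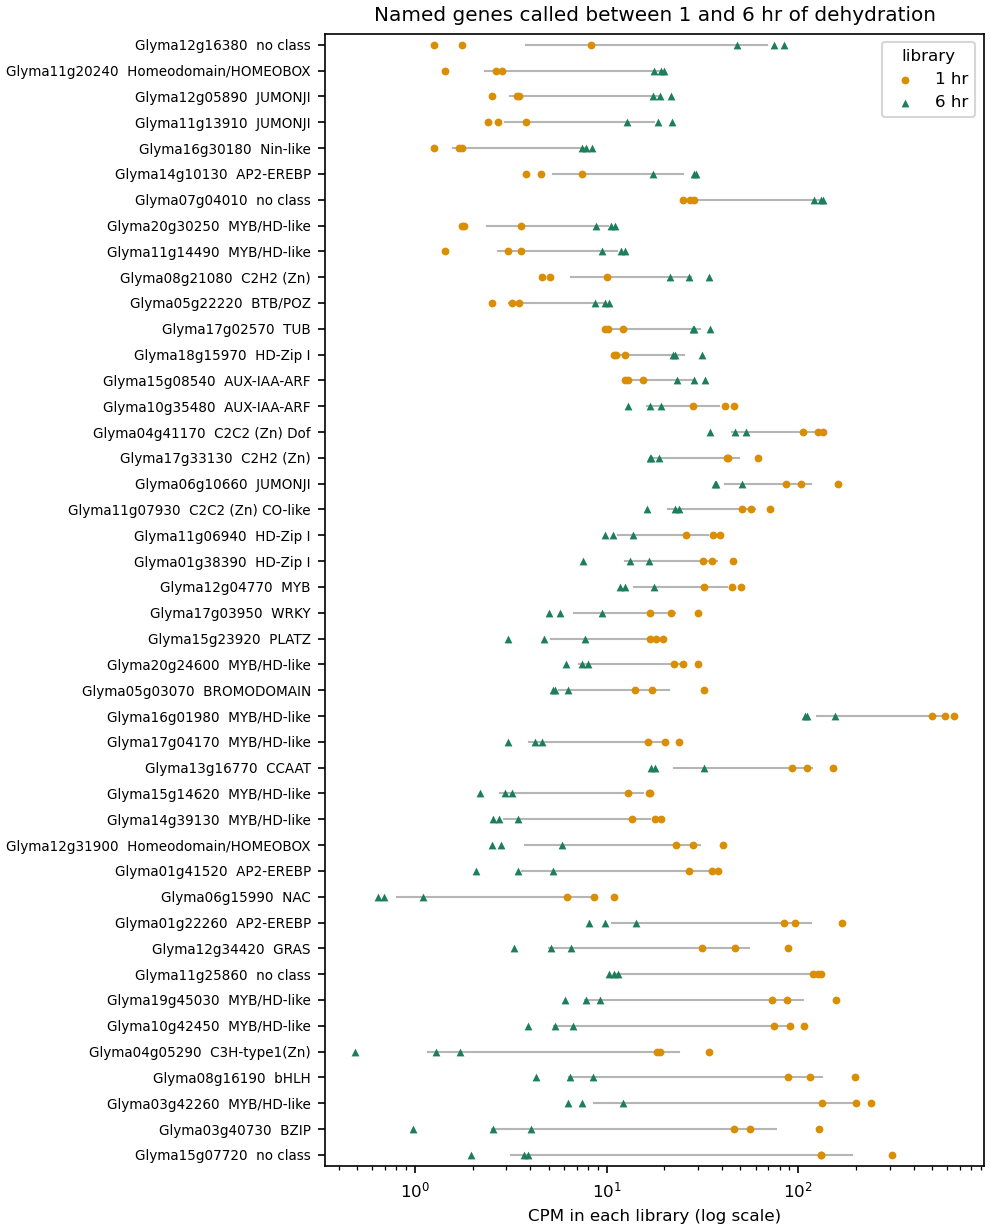
The 44 named DE genes are ordered by fold change, with the CPM of each library on a log axis (circles for 1 hr, triangles for 6 hr) and a grey line joining the group means. In every gene shown the circles and triangles are separate, as in all 753 DE genes.

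No ZIM gene was DE in edgeR's test, and every one was lower at 6 hr on average. All 19 genes tested had a negative change, against 47.8% of all genes, and the median log2 fold change was -1.37. Of the 19, 15 were in the study's dehydration list, which used these libraries, so the contrast with all genes is not independent evidence. By an unadjusted p under 0.05 15 of the 19 were lower, DESeq2's test called 11 lower, and the smallest adjusted p by edgeR was 0.0606. The summed level was 1300, 1170 and 1330 CPM at 1 hr and 757, 358 and 327 CPM at 6 hr. Replicate 1 of 6 hr thus had more than double the ZIM level of the other 6 hr libraries, and without it edgeR called 11 of 20 genes lower. Leaving out any other single library left no ZIM gene called. Glyma01g41290, picked after its values were seen as the member with the largest change, had 118, 87.1 and 106 CPM at 1 hr and 20.8, 2.32 and 2.83 CPM at 6 hr (log2 fold change -3.57 ± 0.79 SE, adjusted p = 0.0660 by edgeR). In this gene too, replicate 1 of 6 hr lay between the other 6 hr libraries and the 1 hr libraries.

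NAC and WRKY factors, known for stress and defence responses, showed the same split between the 6 hr libraries. Of 44 NAC genes 1 fell in edgeR's test, 20 were lower by an unadjusted p under 0.05, DESeq2's test called 13 lower, and the median log2 fold change was -0.86. Their summed level was 824, 978 and 1520 CPM at 1 hr and 760, 502 and 512 CPM at 6 hr. The NAC gene that fell, Glyma06g15990, had 6.25, 10.9 and 8.65 CPM at 1 hr and 0.688, 1.10 and 0.642 CPM at 6 hr (10.4-fold, adjusted p = 0.0130 by edgeR). Of 59 WRKY genes 1 was DE in edgeR's test (1.69%, and 2.27% of the NAC genes, beside 2.27% of all genes), 17 were lower and 3 higher by an unadjusted p under 0.05, and DESeq2's test called 14 lower and 2 higher. The WRKY gene that fell was Glyma17g03950, by 3.36-fold from 22.8 ± 6.61 to 6.75 ± 2.42 CPM (SD, n = 3; adjusted p = 0.0418 by edgeR). WRKY levels summed to 720, 787 and 1840 CPM at 1 hr and 859, 458 and 477 CPM at 6 hr, so replicate 1 of 6 hr lay above 2 of the 1 hr libraries and replicate 3 of 1 hr stood far above both others. Without replicate 1 of 6 hr, 8 NAC and 4 WRKY genes fell. Leaving out any other single library left at most 1 NAC gene and no WRKY gene called. Whether the makeup of replicate 1 of 6 hr has a part in these classes was not tested.

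HD-Zip factors combine a homeodomain with a leucine zipper and bind DNA as dimers. Subfamily I is known for responses to water deficit, II for shade and auxin responses, III for vascular and meristem development, and IV for the epidermis. Of the 101 genes that the study placed in the family, 94 were in the count table, 16 of these had no count in the 6 libraries, and 64 were tested. Only 3 were DE, all in subfamily I, which is 4.69% of those tested beside 2.27% of all genes. A homoeologous pair, copies left by genome duplication, fell together. Glyma11g06940 had 39.0, 36.1 and 25.9 CPM at 1 hr and 10.8, 9.77 and 13.7 CPM at 6 hr, and Glyma01g38390 had 35.6, 46.0 and 31.9 CPM and then 13.3, 7.57 and 16.6 CPM. Both genes were clear of overlap and differed little from each other, with falls of 2.94-fold and 3.03-fold (log2 fold change -1.56 ± 0.22 and -1.60 ± 0.30 SE, adjusted p = 0.0214 and 0.0439 by edgeR). Reads shared by both copies were not counted for either. Both were in the study's salt list and not in its dehydration list.

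Glyma18g15970 rose 2.21-fold, from 10.98, 12.5 and 11.2 CPM to 22.2, 31.4 and 22.7 CPM (1.14 ± 0.20 on the log2 scale, adjusted p = 0.0369 by edgeR). Its homoeolog Glyma08g40970 had a log2 fold change of 0.44 and was not DE, and the difference within the pair was not tested. Without replicate 2 of 6 hr, the adjusted p of Glyma11g06940, Glyma01g38390 and Glyma18g15970 was 0.106, 0.107 and 0.132, and without replicate 3 of 6 hr 0.0685, 0.0778 and 0.0905. Of these 3, Glyma11g06940 remained DE without replicate 3 of 1 hr or replicate 1 of 6 hr, Glyma18g15970 without replicate 1 of 6 hr, and Glyma01g38390 in none of the 6 fits.

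For dehydration, the study discusses HD-Zip genes that it called against its control, a different comparison from the one here. Those genes were not DE between 1 and 6 hr in edgeR's test of the 6 libraries. DESeq2's test of the same libraries called 3 of them, Glyma06g20230, Glyma17g10490 and Glyma01g04890, with adjusted p of 0.00514, 0.0127 and 0.0395. Glyma06g20230 had 67.8, 82.5 and 134 CPM at 1 hr and 51.2, 35.0 and 30.3 CPM at 6 hr, with no overlap (-1.29 ± 0.31 on the log2 scale, adjusted p = 0.0829 by edgeR). Glyma01g04890 had 23.3, 19.9 and 37.7 CPM at 1 hr and 80.0, 59.1 and 38.7 CPM at 6 hr, where the lowest 6 hr library barely exceeded the highest 1 hr library (1.13 ± 0.33, adjusted p = 0.127 by edgeR). Its homoeolog Glyma02g02630, not part of the naming rule, had a log2 fold change of 0.94. Glyma17g10490 had 117, 143 and 420 CPM at 1 hr and 105, 41.5 and 39.6 CPM at 6 hr (-1.87 ± 0.59, adjusted p = 0.147 by edgeR), so the libraries that stand apart, replicate 3 of 1 hr and replicate 1 of 6 hr, were the highest of each group. The same 2 libraries were highest for its homoeolog Glyma05g01390, at 163 CPM among 57.9 to 163 and 120 CPM among 61.4 to 120, and its groups overlapped (-0.24 ± 0.43). They were again highest for Glyma16g02390 and Glyma08g15780, whose changes were 0.04 ± 0.78 and -0.39 ± 0.35 on the log2 scale. With all 21 libraries in the fit, Glyma06g20230 and Glyma17g10490 had adjusted p of 0.0250 and 0.0432 by edgeR.

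Across subfamilies, changes were of either sign. In HD-Zip I, 13 of 27 genes had a positive and 14 a negative change, between -1.87 and 1.14 on the log2 scale, and 5 rose and 6 fell by an unadjusted p under 0.05. In HD-Zip II none of 21 was DE, 1 rose and 1 fell by an unadjusted p under 0.05, and DESeq2's test called 1 higher. In HD-Zip III none of 11 was DE, 9 had a positive change, 2 rose by an unadjusted p under 0.05, and DESeq2's test called none. In HD-Zip IV only 5 of 30 genes had enough counts, none was DE by edgeR or DESeq2, and 3 had an unadjusted p under 0.05. In 20 of the 26 homoeologous pairs compared, both copies changed with the same sign, 10 up and 10 down. Some changes in these pairs were smaller than their SE, among them those of Glyma07g05800 and Glyma16g02390, so their sign is uncertain. The copies of these pairs differed by a median of 0.448 on the log2 scale, and the widest gap, 1.64, was between Glyma05g01390 and Glyma17g10490. Left out were the tandem HD-Zip III genes Glyma07g01940 and Glyma07g01950 and their homoeologs Glyma08g21610 and Glyma08g21620, all tested. Their log2 fold changes were -0.07 and -0.17 against 0.08 and 0.14, so the homoeologs were opposite in sign. Each of these changes was smaller than its SE, so nothing is read from the signs.

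**Figure D4:**
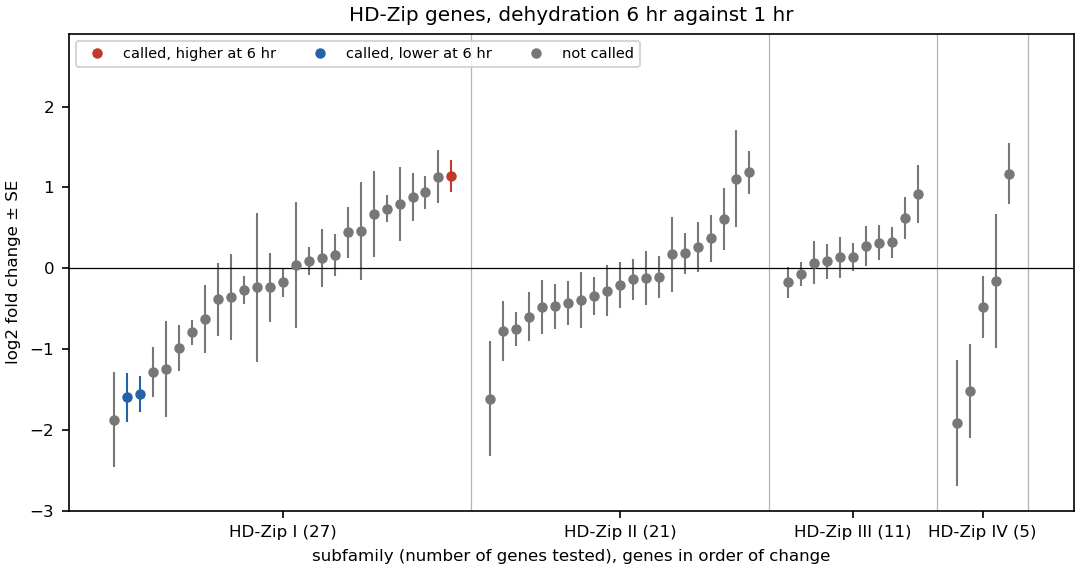
Each point is 1 of the 64 HD-Zip genes tested, grouped by subfamily and ordered by log2 fold change of 6 hr against 1 hr, with its standard error as a bar. The 3 called genes, 2 lower (blue) and 1 higher (red), are all in subfamily I.

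Most DE genes, 654 of 753, had no class. By p-value the clearest fall was in Glyma11g25860, from 120, 131 and 127 CPM to 10.3, 11.5 and 10.9 CPM (11.5-fold, adjusted p = 0.00117 by edgeR). The clearest rise was in Glyma07g04010, from 25.2, 27.4 and 28.7 CPM to 131, 135 and 120 CPM (4.75-fold, adjusted p = 0.00459 by edgeR). In both genes the replicates of each time lay close together. Among genes with at least 10 counts on average in the lower group, the largest fall was 59.4-fold in Glyma15g07720, from 132, 132 and 308 CPM to 3.90, 1.95 and 3.73 CPM (adjusted p = 0.00678 by edgeR). The largest rise, 18.0-fold, was in Glyma12g16380, from 8.33, 1.75 and 1.26 CPM to 84.4, 74.6 and 47.8 CPM (adjusted p = 0.0233 by edgeR). Of the DE genes on chromosomes, 67 of 520 that fell and 15 of 231 that rose had the same call in an adjacent tested model. Untested models between them were skipped. Over all genes tested 1.57% fell and 0.696% rose. These are shares for a single model, whereas a neighbour on either side was counted, so they are not a like background. Whether DE genes cluster was not tested. At 12 hr Glyma11g25860 stood at 1.96, 2.37 and 3.95 CPM, below its 6 hr libraries, and Glyma07g04010 at 54.6, 149 and 118 CPM, with replicate 1 well below both others.

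Salt stress over the same hours shows which of these changes were also seen without water loss in air. Its 6 libraries, roots in 100 mM NaCl for 1 and 6 hr, are separate plants, share no library with the dehydration groups, and were all sequenced in lane 2. Between 1 and 6 hr of salt 639 of 33756 genes were DE (1.89%), and 470 of them rose. Of the genes that rose under dehydration and were tested under salt, 192 of 227 also had a positive change there (median log2 fold change 0.78), and 37 were DE. Of those that fell, 325 of 511 had a negative change under salt (median -0.37), and 19 were DE. None was DE in the opposite direction. These 56 shared genes are 7.59% of the dehydration genes tested in both and 10.1% of the salt genes. Across all genes tested in both, 53.8% had the same sign.

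Several named genes changed alike in both stresses. Glyma12g05890 and Glyma11g13910, the JUMONJI genes that rose, had log2 fold changes of 2.71 and 2.81 under salt (adjusted p = 0.0440 and 0.0289 by edgeR). The MYB/HD-like genes Glyma03g42260, Glyma19g45030 and Glyma16g01980 fell by 3.77, 2.49 and 2.24 on the log2 scale under salt (adjusted p = 0.0223, 0.0339 and 0.0223 by edgeR). Glyma11g25860 fell there by 3.05 and Glyma11g07930 by 1.99, and Glyma08g21080 and Glyma17g02570 rose by 1.83 and 1.31. By contrast, Glyma10g42450, with -4.09 under dehydration, had -0.28 under salt (adjusted p of the difference = 0.0662 by edgeR), and Glyma01g22260, with -3.44, had 0.74 (adjusted p of the difference = 0.0693 by edgeR). With all 21 libraries in the fit these differences had adjusted p of 0.0219 and 0.0253 by edgeR, and DESeq2's test gave 5.57e-05 and 6.67e-05.

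The change from 1 to 6 hr was compared between the stresses gene by gene as an interaction in 1 fit of 12 libraries. None of 35376 genes was called by edgeR, the smallest adjusted p was 0.0652, and 6807 had an unadjusted p under 0.05. DESeq2's test called 2054 genes, and edgeR called 615 with all 21 libraries in the fit and 1403 without replicate 3 of salt at 6 hr. Whether the low share of uniquely mapped reads in that salt library has a part in this was not tested. Leaving out replicate 1 of dehydration at 1 hr gave 77. By class, the summed WRKY level under salt went from 1210, 1330 and 1810 CPM at 1 hr to 4100, 3880 and 3270 CPM at 6 hr, where its mean under dehydration went from 1110 to 598 CPM. The median difference, dehydration minus salt, was -2.20 on the log2 scale over 59 WRKY genes, -1.46 over 93 AP2-EREBP genes and -1.64 over 19 ZIM genes, beside 0.01 over all genes tested under dehydration. The study chose these classes' genes for a change under salt or dehydration in these samples, and many were in its salt list alone, so the choice of genes partly fixes the sign of this difference and nothing is read from it.

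**Figure D5:**
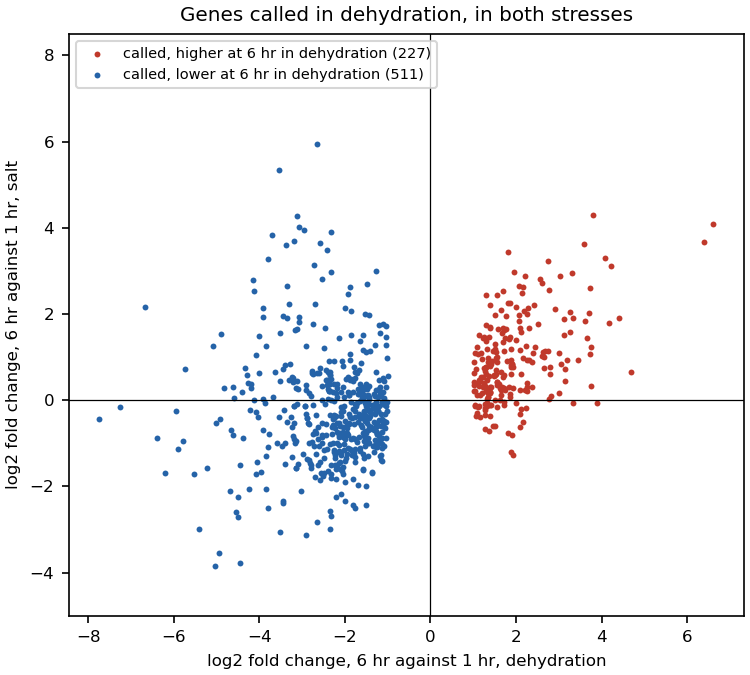
Each point is a gene that was DE between 1 and 6 hr of dehydration and was also tested under salt, with its log2 fold change under dehydration on the x axis and under salt on the y axis. Of the 227 genes higher at 6 hr of dehydration (red) 192 lie above 0 under salt, and of the 511 lower (blue) 325 lie below 0.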

How the data were processed

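Total RNA from roots was sequenced as single-end short reads. The authors aligned the reads with GSNAP, kept those with a single location, and deposited raw counts per gene model, without normalization. In the second deposited table the same counts are divided by library size factors from DESeq 1.7.10, and this normalized signal was used for the limma alternatives alone. The counting program and its use of strand are not given in the sources used here, and values of overlapping or antisense gene models are therefore uncertain.

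The 6 libraries were analysed with edgeR 4.0.16 in R 4.3.3: filterByExpr by group, TMM normalization, and glmQLFit (robust) with glmQLFTest. Genes kept held 99.4% of the counts, and the biological coefficient of variation was 0.292. The SE of a log2 fold change is its size over the square root of F. Interactions were fitted on 12 libraries in the same way. Alternatives used DESeq2 1.42.0, limma 3.58.1 (log2 of normalized values plus 1 or 0.1), other filters, lane, replicate number, thinning to 4558091 counts, and each library left out. The code was tested on simulated data.

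Members and lists were chosen with earlier results of these data known. Named genes are the 12 rising and 12 falling with a class of smallest p, the rising and falling gene of smallest p in each class and among genes with no class, the largest rise and fall with at least 10 counts in the lower group, every DE HD-Zip gene, and the HD-Zip genes the study discusses for dehydration. Lists by gene description, promoter motifs and cell type markers could not be run, since 0 identifiers matched the annotation used here. P-values weigh the difference between groups against the spread between the 3 libraries of a group.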

Additional observations from a re-analysis of the deposited data

Results flagged for a closer look

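Under dehydration, the NAC gene Glyma06g15990 was lower in every 6 hr library than in every 1 hr library (log2 fold change -3.38 ± 0.39 SE, adjusted p = 0.0130 by edgeR), whereas under salt each 6 hr library was higher than each 1 hr library. On the scale of the 12 libraries it had 2.35, 2.12 and 3.88 CPM at 1 hr of salt and 60.8, 32.7 and 7.38 CPM at 6 hr (3.60 ± 0.76, adjusted p = 0.0615 by edgeR). The difference between the stresses was -7.01 on the log2 scale, and its adjusted p by edgeR was 0.0652 on the 12 libraries and 0.0175 with all 21 libraries, and 1.16e-09 by DESeq2's test. It was the only one of the 50 named genes whose libraries moved in opposite directions without overlap in both stresses. Among all DE genes tested under salt, 17 of 511 that fell had all 6 hr salt libraries above the 1 hr ones, and 3 of 227 that rose had them all below. The same direction without overlap was more frequent, with 127 of the 511 all below and 87 of the 227 all above. The share over all genes was not computed, so neither opposite nor same-way movement is shown to be more frequent than in other genes.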

How the results depend on the processing

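All 753 DE genes kept their direction in each alternative in which they were tested, and so did the 44 DE genes among the named ones. With no overlap between the 1 hr and 6 hr libraries in any DE gene, leaving out a library could not have changed this. The count of DE genes was 2200 with DESeq2's Wald test, 1477 with all 21 libraries in the fit, 59 with lane as a term and 79 when tested against a fold of 2. It ranged from 37 to 739 when each library was left out in turn, and was 1264 without both replicate 3 of 1 hr and replicate 1 of 6 hr, a setting chosen after seeing the data. The share that rose was 38.1% with DESeq2's test, 39.2% with all 21 libraries, 34.5% without a filter, 27.2% with limma and a pseudocount of 0.1, 25.4% with lane and 13.9% against a fold of 2, and 17.3 to 29.2% with a library left out. The cause was not tested. DESeq2's size factors, no filter, a filter on 1 CPM, limma, no fold limit and thinning gave 711 to 917 DE genes. Of the named DE genes, 41 remained DE with all 21 libraries (not Glyma11g20240, Glyma05g22220 and Glyma12g04770), 17 against a fold of 2 and 9 with lane.

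The replicate numbers did not pair the samples: deviations from the group means correlated by -0.248, 0.240 and -0.408 for the same number, and replicate 3 of 1 hr went best with replicate 1 of 6 hr (0.501). With the replicate block, 119 genes were DE, 21% of them risen, and the interaction count stayed at 0 (5874 by an unadjusted p under 0.05).

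The interaction count of 0 became 2054 with DESeq2's Wald test and 615 with all 21 libraries, and lay between 0 and 1403 with a library left out. It was 1403 without replicate 3 of salt at 6 hr, 77 without replicate 1 of dehydration at 1 hr, 2 without replicate 1 of dehydration at 6 hr and 1 without replicate 1 of salt at 1 hr. Lists by description and promoter motifs were not run. The dehydration libraries held 4558091 to 9091870 counts, with 3 libraries a group. A difference that missed edgeR's threshold is not shown to be absent, since DESeq2's test and other fits called more genes.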
